A study of Mus musculus with 4 samples.

Results

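The 10 genes described here are effectors of the integrated stress response: the transcription factors Ddit3 (CHOP), Atf5, Atf3 and Cebpb, the pseudokinase Trib3, the glutathione-degrading enzyme Chac1, the phosphatase subunit Ppp1r15a (GADD34), and Sesn2, Niban1 and Ddit4. They were taken as a named list, and all 10 of the list were found among the 19938 genes measured on the arrays. Each was measured by 1 probe set that names no other gene, so no choice between probe sets was needed.

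The arrays came from epithelial cells of small intestinal crypts of adult mice, sorted by flow cytometry for the stem cell receptor Lgr5, and asked what the loss of Slc39a7 (Zip7) does to them. Zip7 releases zinc from the early secretory pathway, that is the endoplasmic reticulum (ER) and Golgi, into the cytosol. The Zip7 KO mice were Zip7flox/flox and the controls Zip7flox/+, so the controls kept 1 copy that was not floxed. Mice of both genotypes carried villin-CreERT2, a tamoxifen-dependent Cre driven in the intestinal epithelium, together with the Lgr5-EGFP-ires-CreERT2 reporter, and all received tamoxifen for 2 days. A fraction labelled Lgr5-Hi and a fraction labelled Lgr5-Med (Lgr5-Mid in the titles) were taken from each genotype. This gave 4 groups of 1 array each, and neither the number of animals behind an array nor whether fractions came from the same animals is stated in the labels.

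In the integrated stress response a kinase that senses stress, such as PERK in the ER membrane, phosphorylates the translation factor eIF2. General translation then falls, while the mRNA of the transcription factor ATF4 is translated more. ATF4 induces CHOP, and both act on a shared set of genes, among them Trib3, Chac1, Atf5 and Sesn2. Ppp1r15a closes the loop by directing a phosphatase to eIF2. Secretory cells of the gut, which make much protein in the ER, depend on this response and on the chaperone arms of the unfolded protein response.

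With 1 array a group there was no spread between animals, and no difference was tested. Differences are therefore given as values on the log2 scale and set beside the differences of all genes above a floor. The floor of an array, set at percentile 95 of 1207 genes for odorant, pheromone and trace amine receptors, lay between 6.10 and 6.25. The background of a comparison held every gene that exceeded the floor on either of the arrays compared, the receptor genes left out. A probe set's level was not compared with that of another probe set, because the signal of an array probe depends on its sequence.

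Several facts about these arrays bear on every value below. Lgr5 ran against the fraction labels, at 7.79 (control) and 7.93 (Zip7 KO) under the label Lgr5-Hi and at 10.97 and 11.24 under Lgr5-Med. The 5 stem cell markers of the list, Lgr5 and Olfm4 among them, were all lower under Lgr5-Hi in both genotypes, with medians of -1.44 in controls and -1.70 in Zip7 KO. The labels were kept. Were they exchanged in both genotypes, each direction between fractions would turn and the genotype differences under the labels would trade places. Slc39a7 stood at 8.92 and 8.61 in the control arrays labelled Lgr5-Hi and Lgr5-Med and at 9.02 and 8.22 in the Zip7 KO arrays. Where its probes lie relative to the floxed part is not known here, and these values do not check the deletion. Xist was at 11.64 and 11.84 in the controls and at 5.59 and 5.43 in Zip7 KO, while the Y-linked Eif2s3y was at 4.10 and 4.24 against 8.12 and 8.11. Sex and genotype therefore cannot be told apart. All 6 epithelial markers of the list, Epcam and Vil1 among them, were above the floor on every array.

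The sequence before the start of transcription is shown for 4 of the genes, since it is where ATF4, CHOP and related factors are known to act. They are Ddit3 as the gene of CHOP, Chac1 as a gene that was higher in Zip7 KO, and Atf3 and Ppp1r15a as genes that were not higher. Each line holds the 250 bases before the RefSeq start on build GRCm38.p6, read 5′ to 3′ along the gene. The positions are chr10:127290543-127290792 on the plus strand for Ddit3, chr2:119350992-119351241 on the plus strand for Chac1, chr1:191183334-191183583 on the minus strand for Atf3 and chr7:45526269-45526518 on the minus strand for Ppp1r15a. Capitals mark TTGCATCA, the reverse complement of TGATGCAA, in Chac1 and Atf3, and the cyclic AMP response element TGACGTCA in Ppp1r15a.
Ddit3: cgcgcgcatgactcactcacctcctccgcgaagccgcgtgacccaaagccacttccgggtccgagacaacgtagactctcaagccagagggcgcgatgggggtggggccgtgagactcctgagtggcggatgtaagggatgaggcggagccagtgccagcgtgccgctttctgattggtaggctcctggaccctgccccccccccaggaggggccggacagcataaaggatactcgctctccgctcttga
Chac1: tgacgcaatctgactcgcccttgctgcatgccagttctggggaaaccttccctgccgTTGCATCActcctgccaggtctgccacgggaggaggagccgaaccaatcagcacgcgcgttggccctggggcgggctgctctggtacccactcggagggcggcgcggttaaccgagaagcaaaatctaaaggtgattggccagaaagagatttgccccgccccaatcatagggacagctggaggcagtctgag
Atf3: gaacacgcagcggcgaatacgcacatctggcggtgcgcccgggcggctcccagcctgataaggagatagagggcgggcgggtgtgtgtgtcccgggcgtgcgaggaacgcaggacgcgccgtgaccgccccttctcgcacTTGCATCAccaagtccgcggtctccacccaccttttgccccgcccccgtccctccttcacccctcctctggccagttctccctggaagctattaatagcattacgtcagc
Ppp1r15a: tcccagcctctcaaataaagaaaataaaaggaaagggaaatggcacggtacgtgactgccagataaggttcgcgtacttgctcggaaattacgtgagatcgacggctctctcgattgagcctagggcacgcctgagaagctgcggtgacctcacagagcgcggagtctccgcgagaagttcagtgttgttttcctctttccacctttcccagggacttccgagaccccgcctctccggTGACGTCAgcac

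Windows of 300 bases, 250 before and 50 after the start, were searched on both strands for all 10 genes, of which Atf5 had 2 windows. The 9-letter element TGATGNAAT, which is bound by C/EBP and ATF dimers, was in the window of 0 of the 10 genes and in 0.965% of all 32851 windows. Its 8-letter core TGATGCAA, which overlaps the 9-letter form and was added after the sequences had been read, was in 2 of the 10. It began 193 bases before the start of Chac1 and 110 bases before that of Atf3, and 0.895% of all windows held it. TGACGTCA was in 1 of the 10, beginning 12 bases before the start of Ppp1r15a, and in 1.79% of all windows. The ER stress response element (CCAAT, then 9 bases of any kind, then CCACG) was in 0 of the 10 and in 0.119% of all windows. Only exact matches within the windows were counted, for every element searched. The Ddit3 sequence above holds cgtgccgctttctgattgg, which read on the other strand differs from the ER stress response element in 1 letter. That of Chac1 begins with tgacgcaat, 1 letter from TGATGNAAT, and that of Atf3 holds ttacgtca, 1 letter from TGACGTCA. No search for such near matches was made. The antioxidant response element TGACNNNGC was in the windows of Cebpb, Ppp1r15a and Sesn2 and in 12.4% of all windows. Chac1 and Atf3 thus shared a core sequence, and whether it bears on their values on the arrays was not tested.

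The first comparison set Zip7 KO against control in the arrays labelled Lgr5-Hi. Of the 10 genes 7 were higher in Zip7 KO, beside 55% of all 11988 genes. Niban1, Chac1, Trib3, Atf5 and Sesn2, or 5 of the 10, were 1.5-fold higher or more, against 1.08% of all genes. At least 2-fold higher were Niban1, Chac1 and Trib3, or 3 of the 10, against 0.25% of all genes. Niban1 enters these counts only through the Zip7 KO array, as its control value was below the floor. None of the 10 was 1.5-fold lower (0.926% of all genes) or 2-fold lower (0.234%). The median difference of the 10 genes was 0.62, and that of all genes 0.02.

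In the arrays labelled Lgr5-Med the genes differed less between genotypes. None of the 9 above the floor was 1.5-fold higher (0.425% of 12243 genes) or 1.5-fold lower (2.1%), and so none was 2-fold higher (0.0653%) or 2-fold lower (0.621%). Niban1 was below the floor on both of these arrays. Of the 9 genes 4 were higher and 5 lower in Zip7 KO, with a median of -0.06, beside -0.03 for all genes. Of all genes 44.1% were higher in Zip7 KO under this label.

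**Figure D1:**
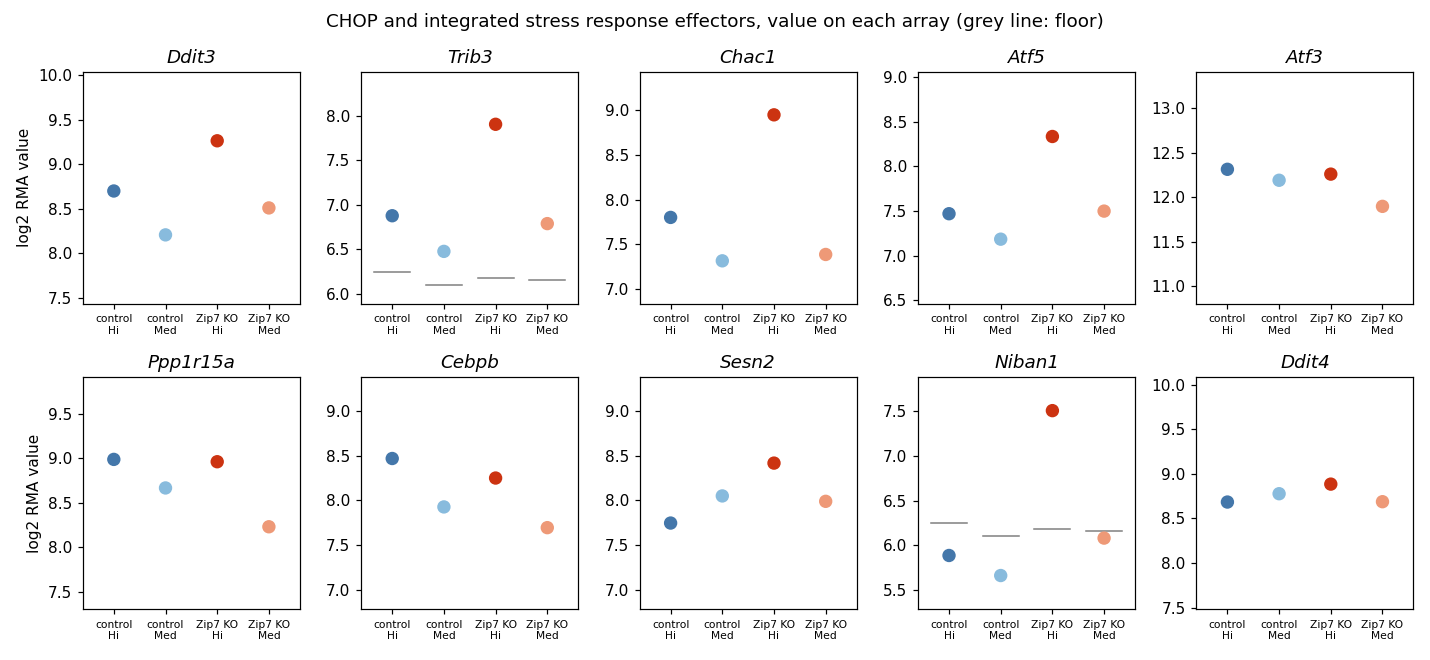
Log2 RMA value (vertical axis, the same length in each panel but not the same start) of the 10 genes on the 4 arrays, 1 point an array, with the floor as a grey line where it falls in the panel. The Zip7 KO array labelled Lgr5-Hi is the highest for 7 genes, while Atf3, Ppp1r15a and Cebpb are highest in the control array with that label.

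By the order of their 4 values, 9 of the genes fell into 3 patterns, grouped after the values had been seen. Niban1 was also highest in the Zip7 KO array labelled Lgr5-Hi but was below the floor on the others, which gives them no order. In the first, Ddit3, Trib3, Chac1 and Atf5 were highest in the Zip7 KO array labelled Lgr5-Hi and lowest in the control array labelled Lgr5-Med. In the second, Atf3, Ppp1r15a and Cebpb were highest in the control array of the label Lgr5-Hi and lowest in the Zip7 KO array labelled Lgr5-Med. In the third, Sesn2 and Ddit4 were highest in the Zip7 KO array and lowest in the control array of the label Lgr5-Hi. Of the 9 genes above the floor on every array, 4 were higher in Zip7 KO under both labels, as 30% of 11827 genes were. Another 3 were lower under both, as 30.8% of genes were, although the sign of Ppp1r15a under Lgr5-Hi turns with the scaling. These are the genes of the first and second patterns, which fix the signs, so the patterns add nothing to these counts.

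Ddit3 encodes CHOP, a C/EBP family factor that promotes cell death when ER stress persists. It stood at 8.70 and 8.21 in the control arrays labelled Lgr5-Hi and Lgr5-Med and at 9.26 and 8.51 in the Zip7 KO arrays. Its value was higher in Zip7 KO under both labels, by 0.56 (1.48-fold) under Lgr5-Hi and 0.30 (1.23-fold) under Lgr5-Med. The first of these lies just short of 1.5-fold (0.58) and had rank 141 among 11988 genes, counted from the highest difference. With the arrays centred on a common median it was 0.61, past 1.5-fold, which makes 6 of the 10 genes, and after quantile normalisation it was 0.49. Ddit3 was also higher under the label Lgr5-Hi than under Lgr5-Med, by 0.49 in controls and 0.75 in Zip7 KO.

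Trib3 encodes a pseudokinase that is induced by CHOP and ATF4 and inhibits ATF4 and AKT. It was at 6.88 and 6.48 in the control arrays labelled Lgr5-Hi and Lgr5-Med, not far above the floor, and at 7.90 and 6.79 in the Zip7 KO arrays. Only the Zip7 KO array labelled Lgr5-Hi stood well apart from the other 3. The genotype difference was 1.03 (2.04-fold, rank 24) under Lgr5-Hi and 0.31 (1.24-fold) under Lgr5-Med.

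Chac1 degrades glutathione and is a target of ATF4 and CHOP. It was at 7.80 and 7.31 in the controls, in the same order of labels, and at 8.95 and 7.39 in Zip7 KO. The genotype difference was 1.15 (2.22-fold, rank 19) under Lgr5-Hi and 0.07 (1.05-fold) under Lgr5-Med. Within Zip7 KO the array labelled Lgr5-Hi was 1.57 (2.96-fold) above that labelled Lgr5-Med, the widest gap between fractions of the 9 genes above the floor on every array.

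Atf5 is a basic leucine zipper factor whose translation, like that of ATF4, depends on eIF2 phosphorylation, and it also acts in the mitochondrial stress response. It was at 7.47 and 7.19 in the controls and at 8.34 and 7.50 in Zip7 KO. Zip7 KO was thus higher by 0.87 (1.82-fold, rank 44) and 0.31 (1.24-fold).

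Niban1, known to be induced in ER stress and to influence eIF2 phosphorylation and translation, was above the floor on 1 array alone. It stood at 5.89 and 5.66 in the controls and at 6.08 in the Zip7 KO array labelled Lgr5-Med, all below the floor, and at 7.51 in the Zip7 KO array labelled Lgr5-Hi. With the floor in place of the control value, Zip7 KO was higher by at least 1.26 (at least 2.40-fold) under Lgr5-Hi. No fold can be given under Lgr5-Med.

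Atf3 encodes a stress-induced leucine zipper factor that represses or activates with its partners and is also an immediate-early gene. It was at 12.31 and 12.19 in the controls and at 12.26 and 11.90 in Zip7 KO. The genotype differences were -0.05 and -0.29. Its 4 arrays spanned 0.42, against 1.05 for Ddit3.

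Ppp1r15a, the inducible subunit that brings protein phosphatase to eIF2, was at 8.99 and 8.67 in the controls and at 8.96 and 8.23 in Zip7 KO. The genotype differences were -0.03 and -0.44 (1.35-fold lower under Lgr5-Med). The first of these was 0.02 when the arrays were centred on a common median, so it has no settled sign. The arrays labelled Lgr5-Hi were higher than those labelled Lgr5-Med, by 0.32 in controls and 0.73 in Zip7 KO.

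Cebpb encodes a C/EBP factor that dimerises with CHOP and ATF4 and is active in inflammation and differentiation. It was at 8.47 and 7.93 in the controls and at 8.25 and 7.69 in Zip7 KO. The genotype differences of -0.22 and -0.23 were nearly equal, and so were the fraction differences of 0.54 in controls and 0.56 in Zip7 KO. In the remaining 8 genes above the floor on every array the genotype difference, with its sign kept, was larger under Lgr5-Hi, by 0.24 or more.

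Sesn2 encodes a stress-induced protein that restrains mTORC1 and responds to ATF4, NRF2 and p53. It was at 7.75 and 8.05 in the controls and at 8.42 and 7.99 in Zip7 KO. Zip7 KO was higher by 0.67 (1.59-fold, rank 85) under Lgr5-Hi and differed by -0.06 under Lgr5-Med, or 0.02 after quantile normalisation. Unlike the genes above, its control array under Lgr5-Hi was below that under Lgr5-Med (-0.30), and the order turned in Zip7 KO (0.43).

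Ddit4 (REDD1) also restrains mTORC1, and it responds to hypoxia and glucocorticoids as well as ATF4. Its values of 8.68 and 8.78 in the controls and 8.88 and 8.69 in Zip7 KO spanned 0.20, the narrowest span of the 10 genes. The genotype differences were 0.20 under Lgr5-Hi and -0.09 under Lgr5-Med.

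**Figure D2:**
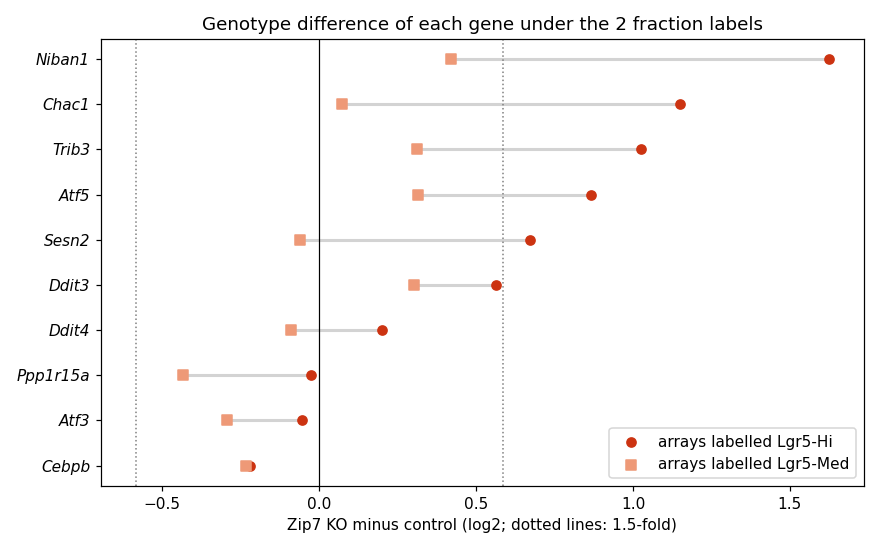
Zip7 KO minus control on the log2 scale (horizontal axis) for each gene, as circles for the arrays labelled Lgr5-Hi and squares for those labelled Lgr5-Med, 1 array a group. The circles of 5 genes lie beyond 1.5-fold (dotted lines) and no square does. Niban1 is drawn at its deposited values, of which 3 of 4 are below the floor.

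With its sign kept, the genotype difference was larger under Lgr5-Hi than under Lgr5-Med in all 9 genes above the floor on every array. This held for 59.9% of 12404 genes above the floor on at least 1 array. In Atf3, Ppp1r15a and Cebpb both deposited differences were negative, and their size was smaller under Lgr5-Hi. The difference between the genotype differences had a median of 0.41 over the 9 genes and of 0.05 over all genes. It ranged from 0.01 in Cebpb to 1.08 in Chac1, with Sesn2 at 0.73, Trib3 at 0.71 and Atf5 at 0.55. The value of Cebpb was -0.12 after quantile normalisation and -0.09 with a loess trend on level removed, so its sign is not settled. This difference was not tested.

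**Figure D3:**
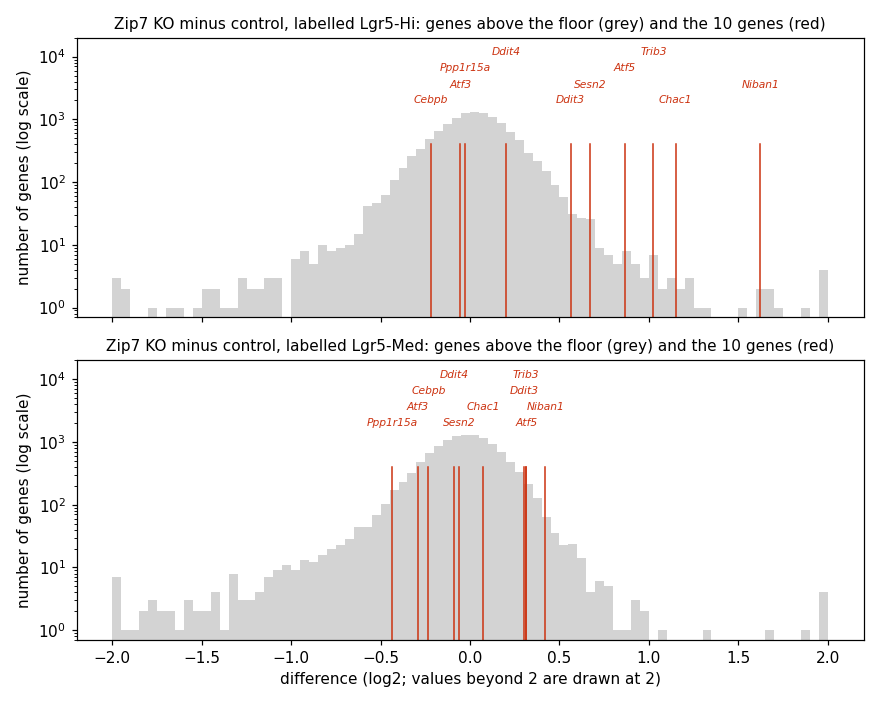
Distribution of the genotype difference (log2, horizontal axis) over all genes above the floor, 11988 under the label Lgr5-Hi (top) and 12243 under Lgr5-Med (bottom), with the number of genes on a log scale, differences beyond 2 drawn at 2, and the 10 genes as red lines. Under Lgr5-Hi the lines of Niban1 (at its deposited value), Chac1, Trib3 and Atf5 lie in the thin right tail, and under Lgr5-Med all 10 lines lie within 0.44 of 0.

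The fraction comparisons use the same 4 arrays and so share their values with the genotype comparisons. In controls 7 of the 9 genes above the floor were higher in the array labelled Lgr5-Hi, where 43.3% of 12248 genes were, and Niban1 was below the floor on both arrays. None of the 9 was 1.5-fold higher (2.3% of all genes) or lower (3.14%), or 2-fold higher (0.669%) or lower (0.523%). The median difference of the 9 was 0.32, with Cebpb at 0.54 and Ddit3 and Chac1 each at 0.49, against -0.04 for all genes. In Zip7 KO all 10 were higher, beside 49.3% of 12114 genes. Chac1, Niban1, Trib3, Atf5, Ddit3 and Ppp1r15a, or 6 of the 10, were 1.5-fold higher or more, against 5.9% of all genes. At least 2-fold higher were Chac1, Niban1 and Trib3, or 3 of the 10, against 1.87% of all genes. Niban1 enters these counts only through the array labelled Lgr5-Hi, as it was below the floor under Lgr5-Med. None was 1.5-fold lower (3.56%) or 2-fold lower (0.751%). The median was 0.74, against -0.0045 for all genes.

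Markers of secretory cells moved with the fraction labels. The arrays labelled Lgr5-Hi were higher for 7 of 7 Paneth cell markers, 6 of 6 goblet cell markers and 7 of 7 enteroendocrine markers in both genotypes. The summed level of the Paneth markers, as the log2 of the sum of linear values, was 15.20 and 14.61 in the control arrays labelled Lgr5-Hi and Lgr5-Med and 14.66 and 13.49 in the Zip7 KO arrays. That of the goblet markers was 15.35, 14.35, 15.37 and 13.90 in the same order, and that of the enteroendocrine markers 13.82, 11.27, 13.65 and 10.84. No marker of these 3 lists lay below the floor on every array. Between genotypes under Lgr5-Hi, 0 of 7 Paneth, 3 of 6 goblet and 2 of 7 enteroendocrine markers were higher in Zip7 KO, with medians of -0.93, 0.06 and -0.38. Under Lgr5-Med 0 of 7, 1 of 6 and 2 of 7 were higher, with medians of -1.54, -0.37 and -0.26. Of 5 tuft cell markers 2 were higher in Zip7 KO under Lgr5-Hi and 5 under Lgr5-Med, with medians of -0.05 and 0.33. Enterocyte markers also moved with the fraction label in Zip7 KO, where 9 of 9 were higher under Lgr5-Hi, with a median of 0.54, against 5 of 9 in controls, with a median of 0.03. Under Lgr5-Med all 9 were lower in Zip7 KO than in control, with a median of -0.65, and under Lgr5-Hi 6 of 9 were, with a median of -0.13. The summed enterocyte level was 14.94, 15.01, 14.93 and 14.58 in the same order of arrays. The part of these marker lists in the values of the 10 genes was not tested. In bulk samples fewer cells of a type and less RNA per cell cannot be told apart.

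The genes that lead to CHOP differed less than CHOP's own group. Of 11 upstream genes measured, 10 were higher in Zip7 KO under Lgr5-Hi, 0 of them by 1.5-fold, with a median of 0.12, and 5 were higher under Lgr5-Med, with a median of -0.09. Atf4, whose protein is controlled mainly by translation, was at 9.12 and 8.82 in the controls and 9.40 and 8.85 in Zip7 KO, a difference of 0.28 and 0.03. Of the eIF2 kinases, Eif2ak3 (PERK) differed by 0.11 and -0.19, Eif2ak4 (GCN2) by 0.01 and -0.12 and Eif2ak1 (HRI) by 0.36 and -0.14, under Lgr5-Hi and Lgr5-Med. Eif2ak2 (PKR), an interferon-induced kinase, was lower in Zip7 KO under both labels, by -0.43 and -0.54. Other genes that interferon induces were lower too, 11 of 11 above the floor under each label.

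Eif2s1, the gene of the phosphorylated eIF2 subunit, was not analysed here. The genes of the exchange factor eIF2B lay close to 0, with Eif2b1 at 0.02 and -0.09, Eif2b2 at 0.19 and 0.04, Eif2b3 at 0.22 and 0.26, Eif2b4 at 0.08 and 0.05 and Eif2b5 at 0.13 and 0.03. Ppp1r15b, the constitutive relative of Ppp1r15a, differed by 0.12 and -0.10. Neither subunit that dephosphorylates eIF2 was thus higher by 1.5-fold in the Zip7 KO arrays.

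Genes outside the 10 that are listed as targets or partners of CHOP were divided. Of 11 measured, 7 were higher in Zip7 KO under Lgr5-Hi, with 3 at 1.5-fold or more and a median of 0.27. These 3 were the ER co-chaperone Dnajc3 (0.99), the stress-induced Nupr1 (0.68) and the ER oxidase Ero1a (0.65). Dnajc3 is also counted among the ER chaperones below, so these lists overlap. The genes of the death regulators Bbc3 (PUMA), Bcl2 and Bcl2l11 (BIM) were at -0.16, -0.05 and -0.03. Those of the death receptor Tnfrsf10b and the death regulator Pmaip1 (NOXA) were higher under Lgr5-Hi, by 0.33 and 0.27. Under Lgr5-Med 0 were 1.5-fold higher and the median was 0.02, with the death receptor Tnfrsf10b at 0.36 and Nupr1 at -0.23.

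Other ATF4 targets, mainly of amino acid uptake and synthesis, were more even. Of the 25 above the floor, 23 were higher in Zip7 KO under Lgr5-Hi, with 7 at 1.5-fold or more in their deposited values and a median of 0.28. Of these 7, Aldh1l2, an enzyme of mitochondrial folate metabolism, had a control value below the floor and was higher by at least 0.21. The cystine transporter gene Slc7a11 was higher by at least 0.99 and the ER stress gene Herpud1 by 1.01, while the serine synthesis gene Phgdh was at -0.32. Under Lgr5-Med 17 of 22 were higher and none by 1.5-fold, with a median of 0.08. The ER chaperones and ER-associated degradation genes, which the ATF6 and XBP1 arms control, had a higher median under both labels than these targets, 0.78 with 19 of 19 higher and 0.18 with 15 of 19 higher. At least 1.5-fold higher were 14 and 2 of them.

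**Figure D4:**
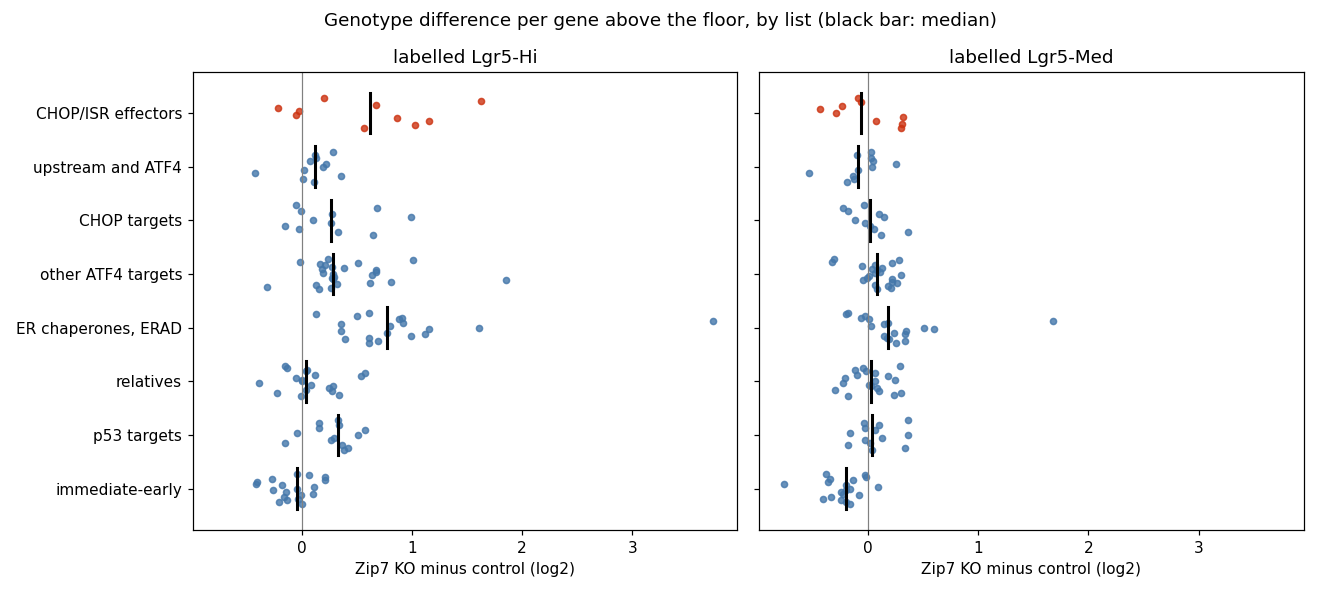
Zip7 KO minus control (log2, horizontal axis) for each gene above the floor in 8 lists, under the label Lgr5-Hi (left) and Lgr5-Med (right), with the median of a list as a black bar. The 10 effectors (red) spread from -0.22 to 1.62 on the left, while the 11 upstream genes lie between -0.43 and 0.36. The value of 1.62 is the deposited difference of Niban1, whose control value is below the floor.

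Relatives of the 10 genes mostly stayed close to 0. Of 19 relatives above the floor, Atf4 among them, none differed by 1.5-fold under either label in the genotype comparisons, and their medians were 0.04 and 0.03. The largest values under Lgr5-Hi were those of Sesn1, the p53-responsive sestrin, at 0.58, just short of 1.5-fold, and of Chac2, the constitutive relative of Chac1, at 0.54. The AP-1 factor Jdp2 was at -0.39. Trib1 was at -0.06 and -0.21, beside 1.03 and 0.31 for Trib3.

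Atf3, Ppp1r15a and Cebpb are also early response genes that cell isolation can induce. A list of immediate-early and dissociation genes that does not hold them ran through the 4 arrays in a similar order. Of its 19 genes, 17 were higher under the label Lgr5-Hi in controls and 17 in Zip7 KO, with medians of 0.19 and 0.35. Between genotypes 13 of 19 were lower in Zip7 KO under Lgr5-Hi, with a median of -0.04, and 18 of 19 under Lgr5-Med, with a median of -0.20. Socs3 was lowest at -0.42 and -0.76. The summed level of the list was 14.89 and 14.80 in the control arrays labelled Lgr5-Hi and Lgr5-Med and 14.81 and 14.62 in Zip7 KO. Markers of lymphocytes and myeloid cells, which also express Cebpb, were lower in Zip7 KO for 11 of 12 markers under Lgr5-Hi and 10 of 11 under Lgr5-Med. The exception was the myeloid marker Cd68, at 0.23 and 0.29. The myeloid markers Lyz2, at -0.16 and -0.62, and Itgam, near the floor and at -0.13 under Lgr5-Hi, differed less than the lymphocyte marker Gzmb. Gzmb was lowest, at -1.47 and -2.55. The summed level of the list of lymphocyte and myeloid markers was 12.16 and 12.36 in controls and 11.59 and 11.35 in Zip7 KO, with Cd79a and Csf1r below the floor on every array. The part of either list in the values of the 3 genes was not tested.

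The genes most like each of the 10 were sought by the distance between 4-array profiles, each centred on its own mean, among 12403 other genes above the floor on at least 1 array. This was done for the 5 genes whose arrays spanned at least 1. The nearest to Ddit3 were the ER chaperone genes Hsp90b1 (GRP94), Dnajb11 and Hspa5 (BiP), each at a distance of 0.11. The nearest to Trib3 was the disulfide isomerase gene Pdia4, at 0.08, followed by Bche and 1700025G04Rik, both at 0.12. Chac1 lay nearest to the glutathione transferase gene Gsta4, at 0.11, then Dnajc3, at 0.19, and Nxf7, at 0.23. Atf5 lay nearest to Glipr1, at 0.06, then Far1, at 0.10, and Herpud1, at 0.11. Niban1 lay nearest to Creld2, at 0.17, then Slc7a11, at 0.22, and Gsta4, at 0.36. Niban1, Slc7a11 and Nxf7 were below the floor on 3 of the 4 arrays, so the lower part of their profiles holds no order. With 4 arrays a near profile is a description.

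**Figure D5:**
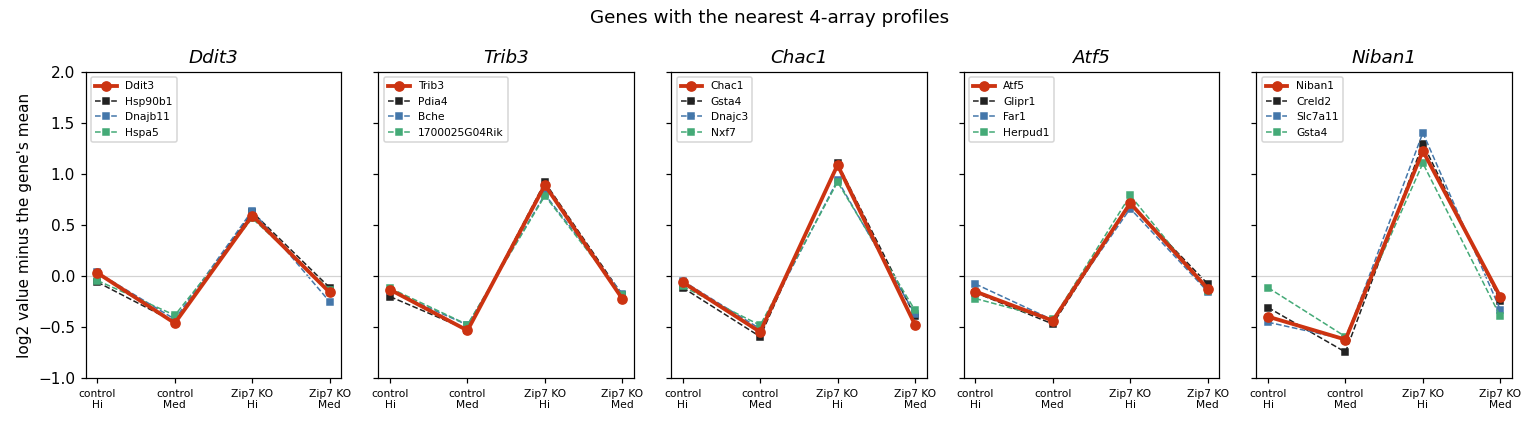
Log2 value minus the gene's own mean (vertical axis) on the 4 arrays for Ddit3, Trib3, Chac1, Atf5 and Niban1 (red) and the 3 genes with the nearest profile to each (dashed lines). In each panel the Zip7 KO array labelled Lgr5-Hi is the highest for the red line, and the control array labelled Lgr5-Med is the lowest in the panels of Ddit3, Trib3, Chac1 and Atf5.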

How the data were processed

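The data were 4 Affymetrix arrays of total RNA, 1 for each combination of genotype and fraction label. Each probe set has a deposited value that the authors obtained with RMA, per the submitters' processing notes, and that is on the log2 scale, judged from its range of 3.08 to 14.6. The RMA software and which arrays it was run on together are not known here. All 4 value columns were used.

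Of 35557 probe sets, 21789 had 1 gene symbol in the platform annotation, 1621 had several and 12147 were not listed. Only the first kind was used, and where a gene had several, the probe set of highest mean was taken. Differences between 2 arrays were computed with Python 3.11.15, numpy 2.4.6 and pandas 2.3.3, and counted past 1.5-fold and 2-fold. The counting was tested on simulated data. No p-value was computed. The 10 genes, the gene lists and the rule for naming genes were chosen with earlier results of these data known. All 10 genes were named, with every upstream gene. Of each other list that bears on the 10 genes, names were limited to the 3 highest and 3 lowest genotype differences under each label. Pmaip1 was named in addition. The nearest profiles were the 3 smallest Euclidean distances. Promoter windows are those of RefSeq, build GRCm38.p6, and all 10 genes matched. No build is named for the arrays. The alternatives were arrays centred on a common median, quantile normalisation, removal of a loess trend on level (statsmodels 0.14.6), the mean of all probe sets of a symbol, floors at percentiles 90 and 99, no filter, and a threshold of 2-fold.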

Additional observations from a re-analysis of the deposited data

Results flagged for a closer look

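In 2 of the 10 genes the genotype difference ran in opposite directions under the fraction labels. Of 11827 genes, 30% were higher in Zip7 KO under both labels and 30.8% lower under both, so opposite directions were common among all genes. For Sesn2 it was 0.67 under Lgr5-Hi and -0.06 under Lgr5-Med, which differ by 0.73. For Ddit4 it was 0.20 and -0.09, which differ by 0.29. Each rests on 1 array per group, and neither difference was tested. The value of Sesn2 under Lgr5-Med was 0.02 after quantile normalisation.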

How the results depend on the processing

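The count of genes at least 1.5-fold higher in Zip7 KO under Lgr5-Hi, 5 of 10, was 3 at a threshold of 2-fold, and the count of 6 in the fraction comparison within Zip7 KO was also 3. In the fraction comparison within controls the count of 0 became 1 with quantile normalisation and 1 with the loess trend removed. The other 96 alternative values of the counts and medians stayed within 1.5 times the main count or within 0.1 of the main median. All 160 values of single genes under another scaling or probe set rule moved by less than 0.1. The mean of all probe sets changes nothing for these 10 genes, since each has 1 probe set. The setting without a filter cannot change these values either, since the main counts and medians here hold all 10 genes. The main median of Zip7 KO minus control under Lgr5-Med was thus 0.0054 here, beside -0.06 for members above the floor. Among the differences between 2 arrays, the signs that turned were those of Ppp1r15a under Lgr5-Hi (0.02, arrays centred) and Sesn2 under Lgr5-Med (0.02, quantile normalisation). The difference of the genotype differences turned in Cebpb, to -0.12 with quantile normalisation and -0.09 with the loess trend removed, which left 9 of 10 genes above 0. Centring the arrays put Ddit3 past 1.5-fold under Lgr5-Hi (0.61), for a count of 6. The medians over members above the floor were chosen after the data had been seen. No paired analysis was possible because the labels give no replicate numbers and each group has 1 array. No array could be left out, and precision is limited by having 4 arrays.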

Other observations

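Other pathways that are known to act on Sesn2, Ddit4 and Trib3 were measured on the same arrays. Of 13 p53 targets above the floor, 11 were higher in Zip7 KO under Lgr5-Hi, 0 of them by 1.5-fold, with a median of 0.33, and 8 under Lgr5-Med, with a median of 0.04. Sesn1 (0.58), the RNA-binding protein gene Zmat3 (0.51) and the cyclin gene Ccng1 (0.42) had the largest values under Lgr5-Hi. Bbc3, Pmaip1 and Tnfrsf10b are also among the CHOP targets above, and Sesn1 among the relatives, so these lists overlap. The p53 targets Cdkn1a and Bax were not analysed here. Of 14 hypoxia targets 9 were higher under Lgr5-Hi, with a median of 0.13 and the glucose transporter gene Slc2a1 at 0.40, and Adm, which encodes adrenomedullin, was at -0.29.

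Of 9 glucocorticoid targets, 7 were higher in Zip7 KO under Lgr5-Hi and 4 under Lgr5-Med, with medians of 0.13 and -0.08. The receptor co-chaperone gene Fkbp5 was lower under both labels, by -0.86 and -0.70. The signalling inhibitor gene Errfi1, at 0.60 and 0.44, and the metallothionein gene Mt2, at 0.27 and 0.32, were higher under both. Of 10 NRF2 targets above the floor, 8 were higher under Lgr5-Hi, with a median of 0.15, and 2 of 9 under Lgr5-Med, with a median of -0.11. The quinone reductase gene Nqo1 was at 0.42 and -0.52.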
